A study of Mus musculus with 2 samples.

Results

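Among the lung γδ T cells of this series, a small group carried transcripts of the cytotoxic granule and of natural killer (NK) cell receptors. A cell was taken as a member when at least 1 molecule (unique molecular identifier, UMI) was read in at least 3 of the 7 genes Gzma, Gzmb, Klre1, Prf1, Xcl1, Klrb1c and Eomes, and when fewer than 5 UMIs fell in the 4 myeloid genes Lyz2, C1qa, C1qb and Csf1r. By this rule 176 of 9139 cells were members, 75 of 2505 in the WT library and 101 of 6634 in the KO-labelled library. The measured values of these genes chose the cells, so their levels are a description and support nothing by themselves.

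The study sorted lung γδ T cells by flow cytometry to compare Vγ1 T cells of mice without the Vγ4 and Vγ6 chains with the non-Vγ1 T cells of WT mice. In the first library were Vγ1- cells from C57BL/6NCrl mice (WT), and in the KO-labelled library Vγ1+ cells from the Vγ4-/-/Vγ6-/- strain labelled B6.Cg-Tcrgtm1lku(B6.Vg4-/-Vg6-/-). All mice were uninfected and 5 to 7 weeks old, and how many were pooled is not given in the sources used here. Each group is 1 library, so no test was run. Every interval is a 95% interval of counting error only, and sort, genotype, strain and library cannot be told apart.

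The libraries held 2520 and 6688 barcodes with 9173997 and 26436826 UMIs, and the filtered cells had medians of 3288 and 3521 UMIs. They shared 23 barcodes after the filter, of which 0 were members in both. Of the 2 genes that the strain is labelled as lacking, Tcrg-V6 had 0 UMIs in the members and the other T cells of the KO-labelled library. Tcrg-V4 was read in 948 of its 6286 other T cells (15.1%) and in 20 of its 101 members (19.8%, 12.5 to 28.9). The same library had it in 7 of 57 cells with B cell or myeloid transcripts (12.3%, 5.08 to 23.7). Median depths were 4437 UMIs in these cells, 3563 in other T cells and 3888 in members. Of the 57 cells, 50.9% also had a CD3 or Trdc UMI, so they are not free of T cell transcripts. The members' share lies within their wide interval, and this comparison cannot tell background from expression. Tcrg-V4 UMIs in single cells of this library are therefore not read as expression. Transcripts assigned to Tcrg-V4 were nevertheless present in the library, and directions between the libraries rest on the label.

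Cytotoxic lymphocytes kill target cells by releasing granules that hold perforin, which opens the target's membrane, and granzymes, proteases that start cell death once inside. NK cells decide whether to release them through activating and inhibitory receptors, many of them C-type lectins of the Klr families, that read ligands on other cells and signal through small adaptor proteins. Some γδ T cells carry this equipment beside their T cell receptor (TCR) and make IFNγ, whereas another lineage of γδ T cells, the γδ17 cells, makes IL-17 and is abundant in mouse lung.

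The members made up 2.99% of WT cells (exact Clopper-Pearson interval 2.36 to 3.74) and 1.52% of KO-labelled cells (1.24 to 1.85). Read after each cell was drawn down at random to 2000 UMIs, which left out shallower cells, the shares were 1.74% of 2125 WT cells and 0.758% of 5806 KO-labelled cells. Members were somewhat deeper than the other T cells of their library, with medians of 3781 against 3375.5 UMIs in the WT library and 3888 against 3563 in the KO-labelled one. Other T cells were the filtered cells that were not members, had a UMI in Cd3d, Cd3e, Cd3g or Trdc and stayed under the myeloid limit, 2184 in the WT library and 6286 in the KO-labelled one. The share of cells in a sort depends on the gate, and the gates of the libraries differed.

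The threshold lay on a falling slope. Exactly 3 rule genes were read in 48 WT and 68 KO-labelled members, and exactly 2 in 97 and 222 other T cells just outside. At least 4 rule genes were read in 27 and 33 members. The myeloid limit removed 0 cells that had 3 rule genes, since 1 was the highest UMI sum of the 4 myeloid genes in any of them.

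Among the granule genes of the rule, granzyme A (Gzma, chromosome 13, 113093825 to 113100981, minus strand, coordinates on GRCm38) gave 1632 UMIs in the WT members, or 5201 CPM (counts per 1000000 of their summed UMIs), against 119 CPM in the other WT T cells. The KO-labelled library had Gzma at 706 CPM in members and 38.1 CPM in other T cells. The WT members that carried Gzma held a median of 20 UMIs of it and up to 214, and the KO-labelled ones a median of 5 and up to 43. Granzyme B (Gzmb) was at 797 against 57.1 CPM in the WT library and 765 against 44.9 CPM in the KO-labelled one, so its level in members lay close in both libraries whereas that of Gzma did not. Perforin (Prf1) was at 147 against 12.7 CPM in the WT library and 118 against 16.2 CPM in the KO-labelled one.

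The other rule genes were a lectin receptor chain of NK cells (Klre1), the NK1.1 receptor (Klrb1c), the chemokine XCL1 that attracts dendritic cells (Xcl1) and a transcription factor of NK and memory T cells (Eomes). Klre1 was read in 59 of 75 WT and 50 of 101 KO-labelled members, and Klrb1c in 36 and 64. Xcl1 was read in 22 WT and 54 KO-labelled members, and Eomes in 19 and 15. The genes that met the rule together differed by library. The most frequent pairs among WT members were Gzmb with Klre1, in 42 of 75, and Gzma with Klre1, in 41. Those of the KO-labelled library were Gzmb with Klrb1c, in 45 of 101, and Gzmb with Xcl1, in 38. After drawing down to 2000 UMIs, each of the 7 rule genes was read in at most 6.77% of other T cells and at most 2.17% of the B cells and myeloid cells of the same libraries.

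**Figure D1:**
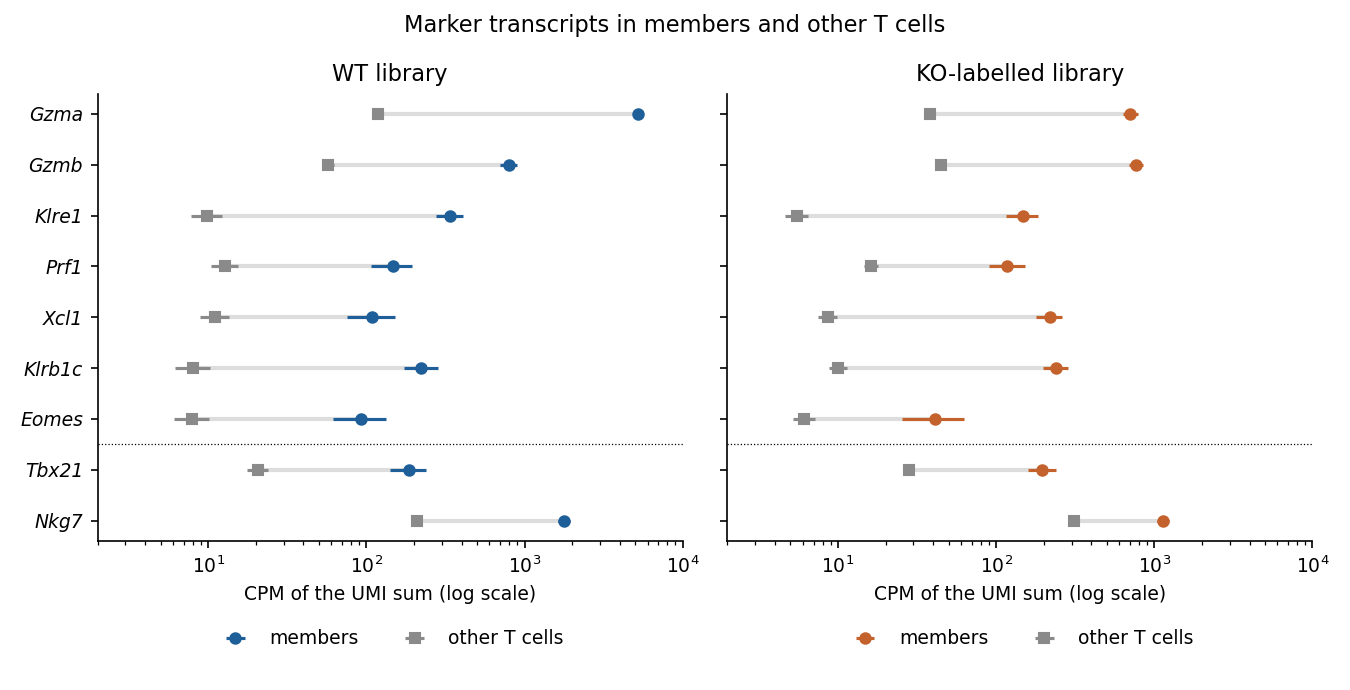
Level of the 7 rule genes (above the dotted line) and of Tbx21 and Nkg7 (below it) in CPM of the summed UMIs on a log scale, with exact Poisson intervals; circles are members and grey squares other T cells of the same library. Each marker lay higher in members than in other T cells in both libraries, and Gzma stood at 5201 CPM in WT members and 706 CPM in KO-labelled members.

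Both markers of the label that the rule did not use were higher in members. The cells were nevertheless chosen from these same libraries on other genes of the program, so every ratio of members over other T cells is a description of the chosen cells. Nkg7, a granule membrane protein needed for efficient release, gave 560 UMIs and 1785 CPM in WT members against 209 CPM in other T cells, a log2 ratio of 3.09 (exact conditional interval 2.95 to 3.23). In the KO-labelled library it stood at 1134 against 310 CPM, a log2 ratio of 1.87 (1.75 to 1.99). After drawing down, Nkg7 was read in 88.6% of WT members, 20.3% of other T cells and 7.46% of B and myeloid cells, and in 83.7%, 37.4% and 15.2% in the KO-labelled library. Tbx21, which encodes T-bet, the master regulator of the type 1 response, was at 185 against 20.7 CPM in WT, a log2 ratio of 3.16 (2.70 to 3.60). In the KO-labelled library it was at 196 against 28.1 CPM, a log2 ratio of 2.80 (2.49 to 3.11).

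Nearly all members carried transcripts of the CD3 chains. A UMI in Cd3d, Cd3e, Cd3g or Trdc was read in 73 of 75 WT members (97.3%, 90.7 to 99.7) and 99 of 101 KO-labelled members (98.0%, 93.0 to 99.8). The medians were 10 and 11 UMIs per member, beside 9 and 10 per other T cell, which were chosen on these genes. In the 80 WT and 57 KO-labelled cells with at least 5 UMIs of B cell or myeloid genes, 35.0% and 50.9% had such a UMI, with medians of 0 and 1 UMI. Their median depths were 4711.5 and 4437 UMIs. Trdc, the δ chain constant region, was read in 39 WT and 54 KO-labelled members. At 2000 UMIs the Trdc shares of members and other T cells of both libraries lay between 28.9% and 30.6%, against 5.97% of WT and 15.2% of KO-labelled B and myeloid cells.

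Summed markers of other cell types lay below or close to their level in the other T cells. A UMI of Trac, Trbc1, Trbc2 or Cd4 was read in 73.3% of WT and 78.2% of KO-labelled members. The shares of other T cells were 75.4% and 78.9%. Trac, the α chain constant region, was read in 9 WT and 18 KO-labelled members, at 28.7 against 30.3 CPM in the WT library and 53.0 against 29.2 CPM in the KO-labelled one. Trbc2, a β chain constant region, was read in 49 and 72 members with log2 ratios of -0.23 and -0.33, and Cd4 was at 0 in members of both libraries. Of the B cell list, Cd79a and Ms4a1 were at 0 in members of both libraries. The summed B cell list stood at 28.7 CPM in WT and 60.8 CPM in KO-labelled members, against 84.5 and 84.6 CPM in other T cells. Of 10 myeloid genes 7 were at 0 in members of each library, and the list summed to 134 and 147 CPM against 191 and 143 CPM in other T cells. The list of ILC2 and ILC3 genes summed to 449 and 426 CPM in members and 711 and 480 CPM in other T cells. A UMI of it was read in 68.0% of WT and 79.2% of KO-labelled members, against 70.3% and 57.9% of other T cells. Lung and blood transcripts (6 genes) were at 0 in WT members and 5.88 CPM in KO-labelled members. The part of these transcripts in the ratios was not tested.

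The 4 members without any CD3 or Trdc UMI were read cell by cell, and whether they are NK cells was not tested. All 4 carried Gzma, with 67 and 38 UMIs in the WT cells and 43 and 22 in the KO-labelled cells. They also carried the NK adaptors Tyrobp, at 12, 13, 10 and 20 UMIs, and Fcer1g, at 13, 11, 24 and 5 UMIs. The activating NK receptor NKp46 (Ncr1) was read in both WT cells, at 5 and 2 UMIs, and in neither KO-labelled cell. Some transcripts of the T cell lists were read too. One WT cell held 2 UMIs of Trdv4, and the other 4 of Cd247 and 2 of Trbc2. The KO-labelled cells held 3 and 1 UMIs of Cd2, and the second also 1 of Lat. The transcription factor Irf8 was read in all 4, at 18, 10, 14 and 4 UMIs, and 1 WT cell alone held 15 UMIs of the receptor Klra8. Their depths were 4805 and 3470 UMIs in the WT library and 3071 and 2340 UMIs in the KO-labelled one.

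Gene lists were read on the members' summed UMIs against those of the other T cells, with a gene counted as measured when it had at least 30 UMIs over both sums and as higher or lower when the CPM differed at least 2-fold. Over all genes measured, 6.54% were higher and 10.3% lower in WT members, and 5.59% were higher and 6.63% lower in KO-labelled members. The median log2 ratio over all genes was -0.05 in the WT library and -0.07 in the KO-labelled one. Of 9757 genes measured in both libraries, 169 were higher in members in both, 196 lower in both and 65 opposite.

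**Figure D2:**
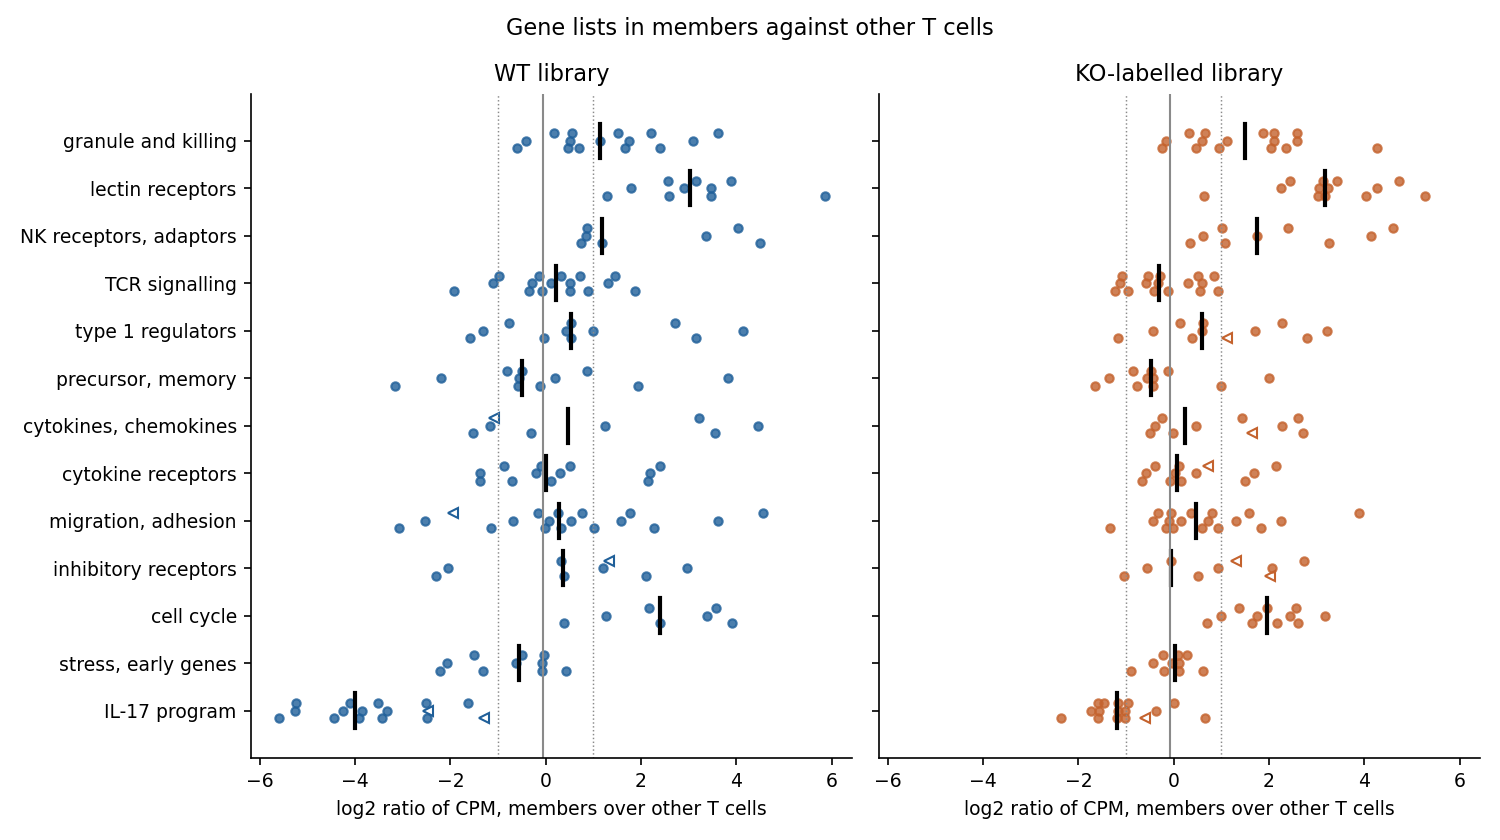
Log2 ratio of CPM, members over other T cells, for each measured gene of 13 lists (points); black bars are list medians, the grey line is the median of all measured genes, dotted lines mark 2-fold, and open triangles are genes at 0 UMIs in members drawn at the upper bound that a floor of 3 UMIs gives. Lectin receptors lay to the right in both libraries, at medians of 3.03 and 3.18, and the IL-17 program to the left, at -4.01 in the WT library and -1.18 in the KO-labelled one.

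Lectin receptors showed the largest list median in both libraries. All 10 measured genes were higher in WT members, with a median of 3.03, and 12 of 13 in KO-labelled members, with a median of 3.18. Members were also set against the other T cells with 2 rule genes, just outside the threshold. There 93 of 3936 genes of all kinds were higher in WT members and 71 of 6066 in KO-labelled members. Of the lectin receptors, 3 of 6 (median 0.71) and 6 of 10 (1.19) were higher. Klrc1, the inhibitory NKG2A chain, gave 153 UMIs in WT members (log2 ratio 2.59, 2.32 to 2.84) and 197 in KO-labelled members (3.05, 2.83 to 3.27). Klrd1 (CD94), the chain that NKG2A pairs with, was higher in WT members, at 1.79, and at 0.64 in the KO-labelled library, where it stood at 208 CPM in members and 133 CPM in other T cells. Klrk1, the activating receptor NKG2D, gave 115 and 87 UMIs, with log2 ratios of 1.28 and 2.44. Of the Ly49 receptors, which bind MHC class I, Klra1, Klra3, Klra5 and Klra7 were higher in both libraries, with log2 ratios between 3.03 and 4.74, although each was read in only 4 to 20 members. Reads shared between these near-identical Ly49 genes cannot be told apart here. Klrg1, a receptor of terminally differentiated effector cells, was read in 25 of 75 WT members, with 56 UMIs against 25 in 2184 other T cells (log2 ratio 5.85, 5.15 to 6.59). Only 3 of 101 KO-labelled members carried it.

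The lectin genes lie close together. Klre1 and Klrb1c of the rule and the measured Klr genes other than Klrg1 sit on chromosome 6, from Klrb1c at 128778485 to the end of Klra1 at 130386874 on GRCm38. Klrg1 lies apart on the same chromosome, at 122270596 to 122282882.

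Granule genes beyond those of the rule were higher for 8 of 15 in WT (median 1.13) and 9 of 16 in the KO-labelled library (median 1.49), and 0 were lower in either. Against the other T cells with 2 rule genes, 0 of 8 were higher in WT (median 0.59) and 2 of 11 in the KO-labelled library (0.59). Most of these genes were thus less than 2-fold apart from the cells just outside the threshold. Higher in both were Nkg7, Gzmm, Serpinb9, Serpinb6b, Fasl and Tnfsf10. The granzyme inhibitor Serpinb9, which shields the killer cell from its own granzyme B, gave log2 ratios of 1.66 and 2.37, and Serpinb6b 2.39 and 2.11. The death receptor ligand FasL (Fasl) gave 69 UMIs in WT members against 146 in other T cells (3.61, 3.17 to 4.03) and 62 against 506 in the KO-labelled library (2.58, 2.18 to 2.97). The proteoglycan that packs the granule, serglycin (Srgn), was not set apart, at -0.41 and -0.24, and was read in nearly all other T cells. The granule protease Ctsw was at 1.51 in the WT library and 0.95 in the KO-labelled one.

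Of NK receptors and adaptors, 4 of 7 measured genes were higher in WT members (median 1.18) and 7 of 9 in KO-labelled members (median 1.75). Against the other T cells with 2 rule genes, 2 of 7 were higher in each library (medians 0.78 and 0.41). Tyrobp (DAP12), which couples activating receptors to kinases, gave 134 UMIs in WT members against 152 in all other T cells, a log2 ratio of 4.51 (4.16 to 4.85), and 127 against 255 in the KO-labelled library, 4.61 (4.29 to 4.92). Fcer1g, the FcRγ adaptor, gave 4.04 and 4.14. Without the 4 members that lack CD3 the values were 4.25 and 4.23 for Tyrobp and 3.87 and 3.97 for Fcer1g. Both adaptors were read in 54.3% to 68.7% of B and myeloid cells at 2000 UMIs, so they do not mark NK-like cells alone. Slamf7 gave 3.36 and 2.39. Ncr1 was read in 6 WT and 4 KO-labelled members, and the NK integrin Itga2 in 4 and 2. Tyrobp itself was read in 35 of 75 WT and 35 of 101 KO-labelled members. Cd7 was read in 47 WT and 78 KO-labelled members (62.7% and 77.2%), but also in 45.7% and 50.02% of other T cells, with log2 ratios of 0.86 and 1.01. Hcst (DAP10) was at 0.84 and 0.33.

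TCR signalling genes were mixed in WT members, where 3 of 16 were higher and 2 lower, with a median of 0.22. In KO-labelled members 0 were higher and 3 lower, with a median of -0.30. Against the other T cells without UMIs of 6 IL-17 genes that are described further on, 0 were higher and 1 lower in WT members (median -0.21), and 0 were higher and 3 lower in KO-labelled members (median -0.26). The kinase Lck that starts TCR signalling gave 1.87 in WT members and 0.59 in the KO-labelled library, and the adhesion receptor Cd2 gave 1.31 and 0.93. The adaptor Lat was at -0.97 and -0.54. The adaptor Sit1 was the only one of the 16 lower in both, at 3 UMIs in WT members (-1.92, -4.20 to -0.36) and 5 in KO-labelled members (-1.24, -2.87 to -0.01).

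Type 1 regulators were higher for 3 of 11 in WT and 4 of 11 in KO-labelled members, with medians of 0.53 and 0.60. Higher in both were Tbx21, Zeb2, a T-bet partner in terminal differentiation, and Irf8. Zeb2 gave 41 UMIs in WT members (2.71) and 14 in KO-labelled members (2.27). Irf8 gave 72 and 71 UMIs, with 4.14 and 3.21, of which the 4 members without CD3 held 28 and 18. Without them the ratios were 3.47 and 2.81.

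Type 1 cytokine and chemokine transcripts went with them. Ifng, which encodes IFNγ, gave 59 UMIs in WT members against 130 in other T cells (3.55, 3.08 to 4.0), with 32.2% of the 59 in 1 cell, and 69 against 553 in the KO-labelled library (2.61, 2.23 to 2.97). Without that cell, and without the top cell of the KO-labelled library, the ratios were 2.99 and 2.5. The chemokine Ccl5 was read in all 75 WT members and 94 of 101 KO-labelled members, at 17835 against 1919 CPM (3.22) and 9219 against 1921 CPM (2.26). Ccl4 gave 40 UMIs in WT members (4.45) and 13 in KO-labelled members (2.71). The list held 4 of 8 higher and 3 lower genes in WT (median 0.46) and 4 of 10 higher and 0 lower in the KO-labelled library (median 0.23, or 0.95 with genes at 0 placed at their bound). Lymphotoxin beta (Ltb) was lower in WT members, at -1.18, and at -0.25 in the KO-labelled library.

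Among cytokine receptors 3 of 12 were higher in each library, Il12rb2, Il18rap and Il10ra in both, and the list medians were 0.00 and 0.07. The receptors for the IFNγ-inducing cytokines IL-12 and IL-18, Il12rb2 and Il18rap, gave 2.18 and 2.41 in the WT library and 1.68 and 2.14 in the KO-labelled one. The IL-7 receptor (Il7r), a survival receptor of memory and γδ17 cells, was lower in WT members, at 440 against 1152 CPM (-1.39, -1.64 to -1.15). In the KO-labelled library it was at 745 against 983 CPM (-0.40, -0.55 to -0.25). The shared IL-2 and IL-15 receptor chain Il2rb was at 0.11 and 0.47.

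Of migration and adhesion genes, 6 of 18 were higher and 4 lower in WT members (median 0.29), and 5 of 18 were higher and 1 lower in KO-labelled members (median 0.48). Those higher in both included Cx3cr1, Cxcr4 and the collagen-binding integrin chain Itga1, which gave 4.56 and 3.90. Lower in both was Itgae, the CD103 chain that binds epithelial E-cadherin, which had 0 UMIs in WT members against 300 in other T cells, a log2 ratio of at most -1.96, and was at -1.33 in the KO-labelled library. The lung homing receptor Cxcr6 was lower in WT members, with 22 UMIs (-3.07, -3.75 to -2.47), and was at -0.02 with 171 UMIs in KO-labelled members. S1pr5, which guides NK cells out of tissue, had too few UMIs to be measured but was read in 10 WT and 4 KO-labelled members, against 5 and 6 UMIs in all other T cells.

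Of the precursor and memory list, 2 of 11 were higher and 2 lower in WT members and 1 higher and 2 lower in KO-labelled members, with medians of -0.49 and -0.48. Ly6c2, a surface marker of IFNγ-committed and memory cells, was the gene higher in both, at 346 and 684 UMIs (1.94 and 2.0). The gut homing receptor Ccr9 was lower in both, at -2.20 with 3 UMIs (-4.49 to -0.64) and -1.65 with 12. The factor Tcf7 was at -0.55 and -0.86 and the lymph node homing receptor Ccr7 at -0.82 and -1.36. Cd8a was higher in WT members, with 35 UMIs in 14 cells (3.82, 3.18 to 4.43), and was read in 8 KO-labelled members with 12 UMIs (0.98, 0.01 to 1.81).

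Inhibitory receptors other than the lectins were mixed, with 3 of 8 higher and 2 lower in the WT library and 2 of 9 higher and 1 lower in the KO-labelled one. Higher in both were Cd160, at 2.96 and 2.73, and Lilrb4a, at 2.11 and 2.07, and Ctla4 was lower in both, at -2.05 with 3 UMIs (-4.33 to -0.49) and -1.05 with 17. PD-1 (Pdcd1) was lower in WT members, at -2.30 (-2.80 to -1.85), and at -0.05 (-0.23 to 0.13) in the KO-labelled library. The list medians were 0.36 and -0.05, or 0.80 and 0.92 with genes at 0 placed at their bound.

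The IL-17 program was the list with the most genes lower. All 16 measured genes were lower in WT members (median -4.01) and 11 of 16 in KO-labelled members (median -1.18). Il17a itself gave 8 UMIs in 2 WT members against 2089 UMIs in other T cells (-3.34, -4.55 to -2.36) and 5 UMIs in 3 KO-labelled members (-1.17, -2.80 to 0.06). The IL-23 receptor (Il23r) was at -5.26 with 2 UMIs (-8.31 to -3.41) and -2.38 with 7. Cd163l1, which encodes the scavenger receptor SCART1 of γδ17 cells, was at -4.26 and -1.19. Zbtb16, which encodes PLZF, was at -2.52 in the WT library and -0.37 in the KO-labelled one. The 16 genes summed to 405 CPM in WT members against 3798 CPM in other T cells, and to 806 against 1737 CPM in the KO-labelled library.

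Because so many other WT T cells carried IL-17 genes, the members were also set against the other T cells with 0 UMIs in the 6 genes Il17a, Il17f, Il23r, Il1r1, Blk and Cd163l1, 798 in the WT library and 4564 in the KO-labelled one. In this comparison 4.37% of all measured genes were higher and 9.15% lower in WT, and 5.96% were higher and 6.53% lower in the KO-labelled library. Lectin receptors were higher for 7 of 8 in WT (median 2.10) and 10 of 11 in the KO-labelled library (median 3.04), and granule genes for 6 of 14 (0.97) and 8 of 15 (1.69). NK receptors and adaptors were higher for 4 of 7 (1.83) and 5 of 8 (1.66). Nkg7 moved from 3.09 to 1.86 in the WT library and from 1.87 to 1.72 in the KO-labelled one, and Tbx21 to 2.54 and 2.59. Some WT values changed more. Lck went from 1.87 to 0.72, Cd2 from 1.31 to 0.45, and Klrd1 from 1.79 to 0.57. The precursor and memory list was then lower for 7 of 11 genes in WT, with a median of -1.11, and for 4 of 11 in the KO-labelled library, with -0.66. The IL-17 list is not read here, since genes of it chose the cells compared with.

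Beyond the lists, 4776 genes had enough UMIs and were read in at least 10% of members or other T cells in each library. Those highest in members in both libraries, ranked by the ratio nearer to 0, were Ifitm10 (3.81 and 4.14), the calcium-dependent death-associated kinase Dapk2 (5.05 and 3.80), the potassium channel Kcnj8 (3.59 and 2.94), the lysosomal sulfatase Arsb (3.0 and 2.90), Litaf (2.56 and 2.71), Plek (3.35 and 2.55) and Samd3 (3.0 and 2.51). The homeobox genes Hopx, at 2.27 and 2.26, and Hhex, at 2.18 and 2.29, came next, followed by Metrnl, Ctla2b and Slc9a7 between 1.71 and 2.22. Litaf and Plek were also read in 70.1% and 53.7% of WT B and myeloid cells at 2000 UMIs, against 52.9% and 28.6% of WT members. At the low end stood Ifngr2, the signalling chain of the IFNγ receptor, at -3.06 and -2.54, the sphingomyelin synthase Sgms1, at -2.29 with 3 UMIs (-4.58 to -0.74) and -2.27, and the histone deacetylase Hdac9, at -2.11 and -3.83 with 3 UMIs (-6.11 to -2.28). The transcription factor Etv6 (-1.68 and -2.08) and the chemokine receptor Ccr4 (-1.56 and -2.30) were lower in both libraries too, as were Pxdc1, Ppp2r3a, Plxdc2, Lmo4, Rgs10 and Mast4, between -4.30 and -1.37. Against the other T cells without IL-17 gene UMIs, Pxdc1 stood at -0.44 and -0.085 and the LIM protein gene Lmo4 at -0.027 and -0.65, both less than 2-fold apart.

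The number of rule genes read went with the level of genes outside the rule on both sides of the threshold. The group with at least 4 included the 4 members without CD3 or Trdc UMIs, and all cells of the other groups had such a UMI. Nkg7, Ccl5, Tyrobp, Klrc1 and Fasl were higher at each further rule gene up to exactly 3 in both libraries. In the group with at least 4 they were higher again only as read with the cells without CD3 included. For WT Nkg7 the intervals of that last step overlapped, at 1594 to 1973 CPM and 1565 to 2059 CPM. Of that group's Nkg7 UMIs, the cells without CD3 held 20 and 10 of 212 in the WT library. For Tyrobp they held 12 and 13 of 85 in the WT library and 10 and 20 of 65 in the KO-labelled one. The last step was not read without them, so no rise at that step is given for cells with CD3 or Trdc UMIs. In WT cells with 0, 1, 2, exactly 3 and at least 4 rule genes, Nkg7 stood at 119, 327, 990.4, 1776 and 1799 CPM. The KO-labelled library had it at 278, 364, 615, 979 and 1436 CPM. Ccl5 ran 976, 2831, 11379.7, 17708.5 and 18044.5 CPM in the WT library and 1540.3, 2533, 5753, 9114 and 9423 CPM in the KO-labelled one. For both genes the WT cells with 2 rule genes, just outside the threshold, already stood nearer to the members than to the cells with none. Tyrobp ran 9.06, 35.5, 88.1, 250.1 and 721 CPM in the WT library and 5.38, 17.2, 63.0, 184 and 376 CPM in the KO-labelled one. The summed IL-17 program ran the other way, at 4227, 3042, 826, 459 and 314 CPM in the WT library and 1801, 1660, 971, 819 and 782 CPM in the KO-labelled one. Other genes did not keep to such an order. Ifng stood at 90.5, 240 and 102 CPM in WT cells with 2, exactly 3 and at least 4 rule genes, and Klrd1 at 240, 193 and 237 CPM in the KO-labelled library. In the same cells of the KO-labelled library Il12rb2 stood at 249, 389 and 301 CPM and Il7r at 814, 709 and 817 CPM. Cell cycle transcripts summed to 457, 1434 and 238 CPM in the WT library and 391, 528 and 579 CPM in the KO-labelled one. Median depth was 3252.5, 3993, 3986, 3402.5 and 4025 UMIs along the range in WT, so cells with more rule genes were in part deeper cells, and its part in the slope was not tested.

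**Figure D3:**
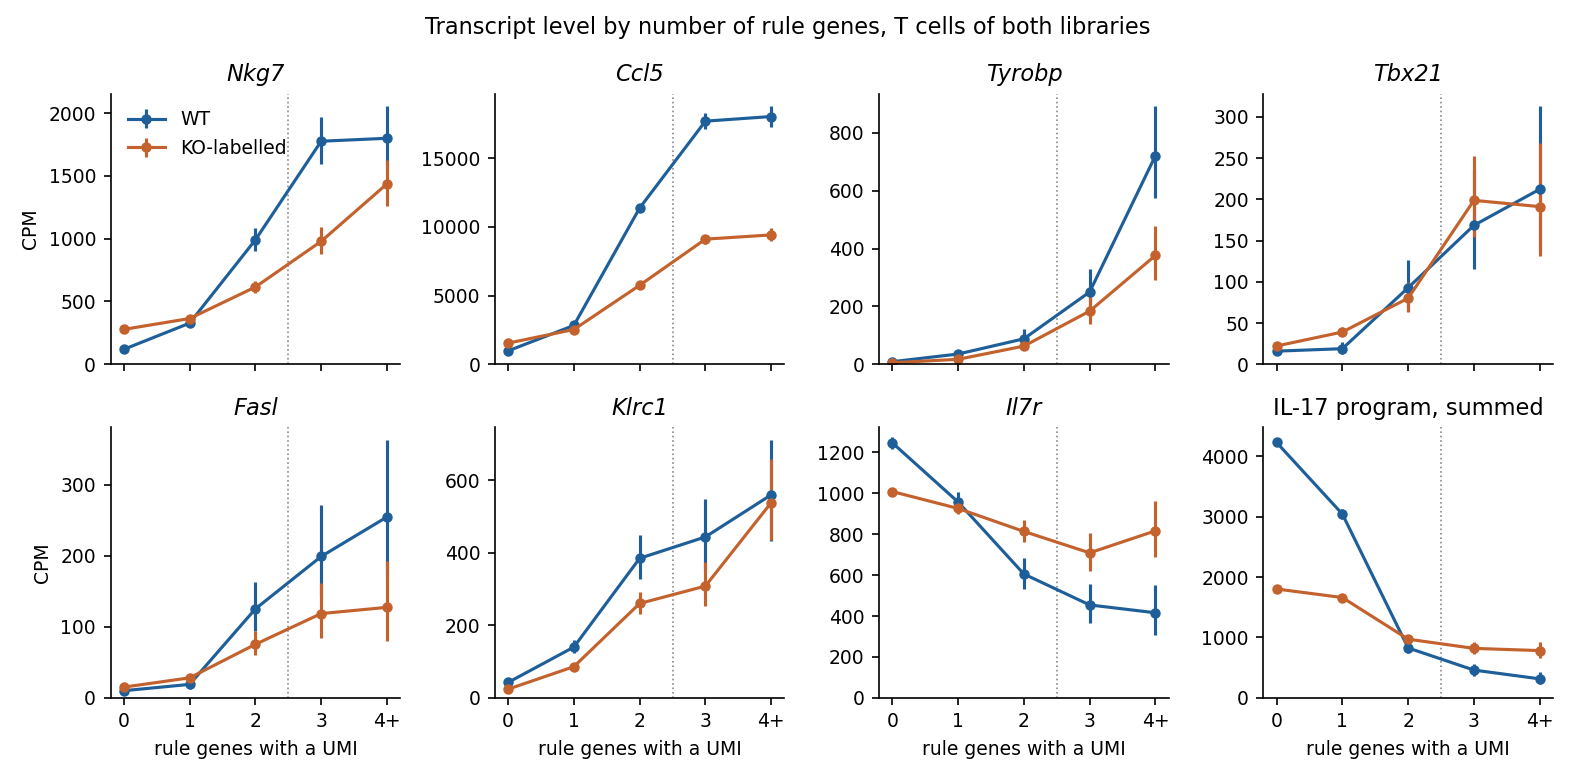
CPM of the summed UMIs with exact Poisson intervals for 7 genes and the summed IL-17 program. Cells had 0, 1, 2, exactly 3 or at least 4 rule genes, and the last group includes the 4 members without CD3 or Trdc UMIs. The dotted line marks the threshold, and blue and orange lines are the WT and KO-labelled libraries. Nkg7 in WT stood at 119 CPM with 0 rule genes and 1799 CPM with at least 4, and the IL-17 program at 4227 and 314 CPM.

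Cell cycle transcripts were read in a larger share of members than of other T cells. Cell cycle genes were higher for 6 of 7 in WT (median 2.41) and 9 of 11 in the KO-labelled library (median 1.97). UMIs of at least 3 of the 12 genes were read in 5 of 75 WT members (6.67%, 2.20 to 14.9) against 2.01% of other T cells, and in 9 of 101 KO-labelled members (8.91%, 4.16 to 16.2) against 1.67%. At 2000 UMIs the shares were 4.29% against 0.758% in the WT library and 2.04% against 0.618% in the KO-labelled one. With these 5 and 9 members left out, and the other T cells kept whole, 0 of 7 genes were higher in WT (median -0.012) and 0 of 10 in the KO-labelled library, where 5 of the 10 had 0 UMIs in members. The 5 and 9 were chosen on these same genes, so a fall was set beforehand. It shows only in which members the transcripts lay. The list then summed to 242 CPM in WT members against 246 in other T cells, and to 179 against 189 CPM in the KO-labelled library. A UMI of the list was still read in 62.9% of these WT members against 48.3% of other T cells, and in 56.5% against 39.7% in the KO-labelled library. Stress and early response genes were lower for 4 of 10 in WT members (median -0.57) and 0 of 10 in KO-labelled members (median 0.03). Against the other T cells without IL-17 gene UMIs the WT direction turned, to a median of 0.14 with 1 of 10 lower.

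In the WT library the receptor chains of the members were unlike those of the other T cells as a whole. Their Tcrg-V6, Tcrg-V1, Tcrg-V7, Trdv2-2 and Trdv4 shares lay nearer to those of the other T cells without IL-17 gene UMIs. Their Tcrg-V4 and Trdv5 shares did not. Among cells with UMIs of 1 γ variable gene, 13 of 29 WT members carried Tcrg-V4 (44.8%), 7 Tcrg-V1 (24.1%), 6 Tcrg-V7 (20.7%) and 1 Tcrg-V6 (3.45%, 0.0873 to 17.8). Of 1043 other WT T cells 48.5% carried Tcrg-V6, 36.4% Tcrg-V4, 7.00% Tcrg-V1 and 2.49% Tcrg-V7. Of 260 of them without IL-17 gene UMIs, 8.85% carried Tcrg-V6, 60.4% Tcrg-V4, 17.7% Tcrg-V1 and 7.69% Tcrg-V7. The members' Tcrg-V6 and Tcrg-V1 shares held these values within their intervals, and their Tcrg-V7 share (7.99 to 39.7) did not. The sort was for cells without the Vγ1 chain, and a Tcrg-V1 UMI was read in 10 of 75 WT members (13.3%, 6.58 to 23.2) and in 4 of 80 WT B and myeloid cells (5.0%, 1.38 to 12.3). Tcrg-V4 was read in 15 WT members and in 11 of those 80 cells (13.8%, 7.07 to 23.3), an interval that holds the members' share, whereas Trdv2-2 was read in 31 members (41.3%) and 5 of the 80 (6.25%). Of those 80 cells 35.0% had a CD3 or Trdc UMI, so they do not give a background free of T cell transcripts. Among cells with UMIs of 1 δ variable gene, Trdv2-2 was carried by 28 of 41 WT members (68.3%, 51.9 to 81.9) and 19.9% of 1441 other T cells, and Trdv4, the usual partner of the Vγ6 chain, by 4 members (9.76%) and 49.3%. Trdv5 was carried by 4 members (9.76%, 2.72 to 23.1), 26.8% of other T cells and 41.9% of those without IL-17 gene UMIs. Other T cells without IL-17 gene UMIs carried Trdv2-2 at 41.4% (36.4 to 46.5) and Trdv4 at 4.45%. Those with 2 rule genes, just outside the threshold, carried Trdv2-2 in 35 of 53 cells (66.0%, 51.7 to 78.5) and Trdv4 in 16.98%. Trdv5 was carried by 5.66% of these 53 cells (1.18 to 15.7). Of 32 cells of this group with 1 γ gene, 18.75% carried Tcrg-V7 (7.21 to 36.4), 21.9% Tcrg-V6 and 9.38% Tcrg-V1. The Trdv2-2, Trdv5 and Tcrg-V7 shares of the members were therefore not particular to them. The Tcrg-V6 and Tcrg-V1 shares of this group lay outside the members' intervals (0.0873 to 17.8 and 10.3 to 43.5).

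In the KO-labelled library the γ chains of members and other T cells lay close. Tcrg-V1 was carried by 39 of 48 members (81.3%, 67.4 to 91.1) and 81.7% of 2529 other T cells. Tcrg-V4, with the limit given above, was carried by 9 members (18.8%) and 13.4%. Of the δ genes, those of the Trav15-dv6 group were carried by 14 of 38 members (36.8%) and 31.4% of 3107 other T cells. Trdv2-2 was carried by 10 (26.3%) and 30.2%, Trdv5 by 8 (21.1%) and 14.6%, and Trdv1 by 5 (13.2%) and 20.2%, each within the interval of the members' share. A γ gene was read in 33 of 75 WT and 61 of 101 KO-labelled members, so most of the receptor pairs were not seen.

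**Figure D4:**
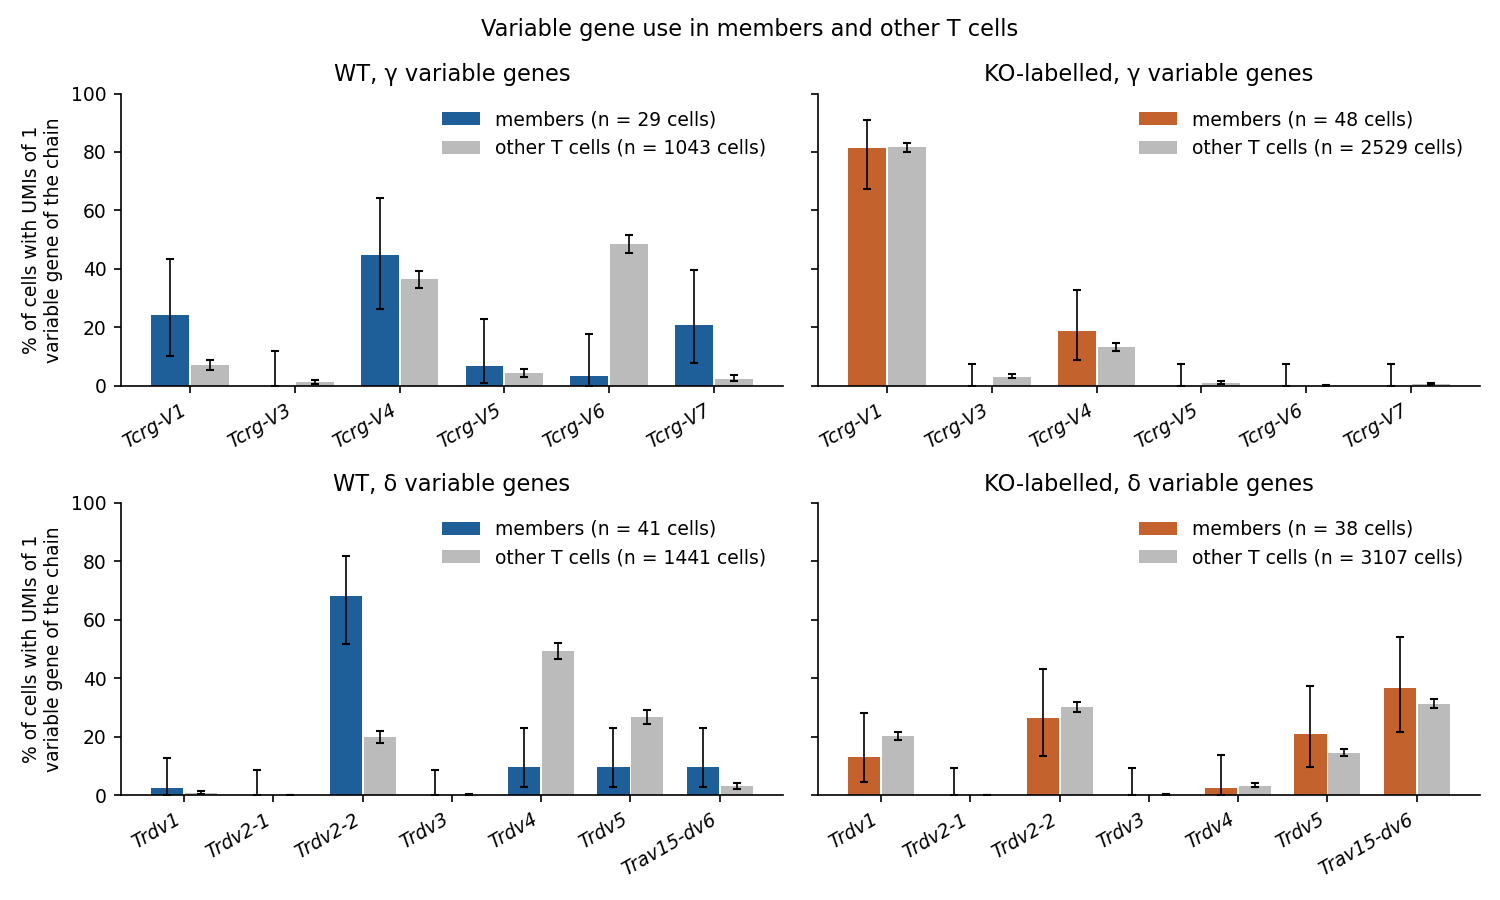
Percent of cells with UMIs of a single γ (upper row) or δ (lower row) variable gene that carried each gene, with exact Clopper-Pearson intervals; coloured bars are members and grey bars other T cells. In WT, Tcrg-V6 was carried by 3.45% of members and 48.5% of other T cells and Trdv2-2 by 68.3% and 19.9%, while other T cells without IL-17 gene UMIs, not drawn, were at 8.85% and 41.4%; in the KO-labelled library Tcrg-V1 was carried by 81.3% and 81.7%.

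Members of the KO-labelled library were then set against members of the WT library. Y-linked transcripts were read in 14 of 75 WT and 0 of 101 KO-labelled members, so these transcripts went with the library too, and what part of the differences goes with the sex of the mice was not tested. Of 4249 genes measured over both, 3.69% were at least 2-fold higher and 3.2% lower in the KO-labelled members, with a median log2 ratio of 0.01. Of the genes of the rule, Gzma was at -2.88 (-3.05 to -2.72), Klre1 at -1.20, Gzmb at -0.06 and Xcl1 at 1.01, as a description. Most list genes differed less than 2-fold. Of the granule list 0 of 9 genes were higher or lower (median -0.37), and likewise 0 of 7 NK receptors and adaptors (median -0.32) and 0 of 10 cytokine receptors (median 0.09). With so few genes per list, these counts lie near the shares over all genes and do not set the lists apart. Tbx21 stood at 185 CPM in WT and 196 CPM in KO-labelled members, a log2 ratio of 0.09 (-0.40 to 0.58), and Fcer1g at -0.26 (-0.54 to 0.02).

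Lower in KO-labelled members were, among the lists, Klrg1, Zeb2, Ccl4, Cd8a, Klrk1, Itga1, Lilrb4a, Trat1, Egr1 and 4 cell cycle genes. Klrg1 was at 178 CPM in WT and 9.81 CPM in KO-labelled members (-4.19, -5.86 to -2.88), and of its 5 UMIs in the KO-labelled members 4 came from the cells without CD3. Zeb2 was at -2.25 (-3.24 to -1.35), Ccl4 at -2.32 (-3.35 to -1.39) and Cd8a at -2.24 (-3.33 to -1.26). In the other T cells of the libraries Klrg1 was also lower, at -2.81, and Zeb2 at -1.81, whereas Ccl4 was at -0.58 and Cd8a at 0.59. The other CD8 chain gene, Cd8b1, went the opposite way to Cd8a in members. It had 10 UMIs in WT and 36 in KO-labelled members (1.15, 0.11 to 2.32), and was at 2.13 in other T cells. NKG2D (Klrk1) was at -1.10 in members and -2.27 in other T cells. Cell cycle genes were lower for 4 of 7 (Mki67, Top2a, Stmn1 and Rrm2, median -1.05), on 5 and 9 cycling cells.

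Higher in KO-labelled members were 14 list genes, led by Pdcd1, Cxcr6 and genes of the IL-17 program. Pdcd1 was at 124 CPM in WT and 504 CPM in KO-labelled members (2.02, 1.53 to 2.54), against -0.23 in the other T cells of the libraries. Cxcr6 was at 70.1 and 335 CPM (2.26, 1.61 to 2.97), against -0.80 in other T cells, and Zbtb16 at 28.7 and 157 CPM (2.45, 1.46 to 3.63), against 0.30. Of the IL-17 program 3 of 6 genes were higher, Zbtb16, 5830411N06Rik (SCART2) and Tmem176a, with a list median of 1.28, and 0 were lower. Klf2, which maintains expression of exit receptors on circulating T cells, was at 1.61 (1.22 to 2.01) in members and 2.29 in other T cells. The co-receptor genes Cd5, Cd6 and Cd28 were at 1.14, 1.09 and 1.04, and at 0.94, 0.95 and 1.36 in other T cells. The Ly49 gene Klra1 was at 1.71 in members and 1.74 in other T cells.

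Beyond the lists, over the members with CD3 or Trdc UMIs, the largest ratios often rested on few cells. Ly6a, which encodes Sca-1, had 1 UMI in WT and 52 in KO-labelled members (4.98, 2.44 to 10.3), against -0.27 in other T cells. Ramp1, a subunit of the receptor for the neuropeptide CGRP, had 3 and 43 UMIs (3.12, 1.47 to 5.45), against -0.43. Hspb1 had 1 and 31 UMIs (4.23, 1.65 to 9.58), with 90.3% of the 31 in 1 cell, and the chemokine Cxcl10 had 6 and 104 (3.39), with 69.2% in 1 cell. At the low end stood 5 histone genes of the Hist1 cluster, at -5.58 (-10.9 to -2.99) for Hist1h2an, with 29 and 1 UMIs, to -2.37 for Hist1h2ab. Hist1h2ao, with 53 and 0 UMIs, was at most -4.87. Their reads can be shared between near-identical copies, and histone transcripts belong to dividing cells.

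**Figure D5:**
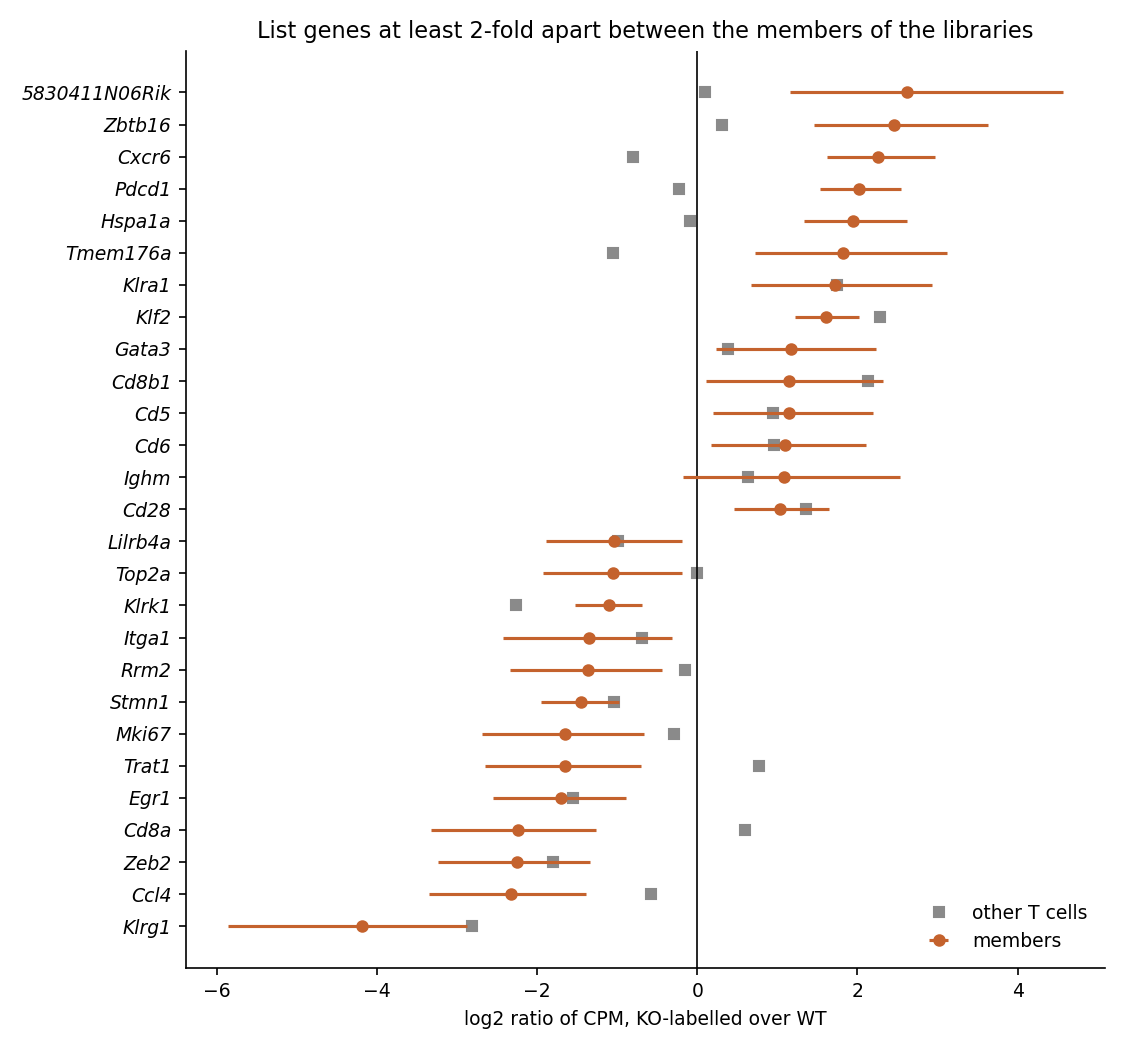
Ratio between the libraries (log2 of KO-labelled CPM over WT CPM) for the list genes at least 2-fold apart between the members of the libraries; orange circles are members with exact conditional intervals, and grey squares are the same ratio in other T cells. Klrg1 stood at -4.19 in members and -2.81 in other T cells, whereas Pdcd1 and Cxcr6 stood at 2.02 and 2.26 in members and -0.23 and -0.80 in other T cells.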

How the data were processed

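The deposited values are raw UMI counts, a matrix of genes by cell barcodes per library, from the authors' Cell Ranger run on mm10 (release 7.0.0 in the file headers, 7.0 in the submitters' processing notes and an older release in the study's methods). The methods name a V(D)J 5′ kit and the labels a 3′ protocol. No source used here gives the strand or intron settings. The counts are restricted to called cells and are not normalised, and 0 columns belonged to other samples. There was 1 library per group, at 9173997 and 26436826 UMIs.

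Cells with over 200 and under 4000 genes and under 10% mitochondrial UMIs were kept, as in the study. Barcodes over the gene limit were dropped and no doublet caller was used in the main values. The 7-gene rule, the 4-gene myeloid limit and the gene lists were chosen with earlier results of these data known. For each library, UMIs were summed over members and over other T cells, expressed as CPM, and compared as log2 ratios with exact conditional 95% intervals. Sums have exact Poisson and shares exact Clopper-Pearson intervals. Molecule counts do not carry the spread between mice, so all intervals cover counting error only, and no test was run. A sum of 0 was set to a floor of 3 UMIs and its ratio given as a bound, and such genes were never called higher in the group at 0. A call was a 2-fold difference with at least 30 UMIs over both sums. Shares were also read with each cell drawn down to 2000 UMIs, at the loss of 380 shallower cells in WT and 828 in the other library. B and myeloid reference cells had at least 5 UMIs in the genes of those lists.

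Genes named were the list genes and, outside them, the 12 highest and 12 lowest in members over other T cells in both libraries (ranked by the ratio nearer to 0, with 1 of them not reported here) and the 5 highest and 5 lowest between the members with CD3 or Trdc UMIs. TCR, sex-linked, mitochondrial and ribosomal genes were left out of that ranking. Of 32285 gene IDs, 32158 matched the GENCODE annotation of GRCm38, which gave the coordinates. Alternatives were a looser and a stricter rule, other thresholds, UMI minimums and comparison cells, and leaving out cells or marked doublets. Python 3.11.15 was used with numpy 2.4.6, scipy 1.17.1, pandas 2.3.3, scanpy 1.11.5 and matplotlib 3.10.9, and the ratio and share steps were tested on simulated data.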

Additional observations from a re-analysis of the deposited data

Results flagged for a closer look

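For 2 δ variable genes, the UMI sums of members lay on opposite sides of those of other T cells in the libraries. Trdv2-2 (chromosome 14, 53960944 to 53961602, GRCm38) had a log2 ratio of members over other T cells of 1.70 in the WT library and -1.33 in the KO-labelled one. Trdv1 (chromosome 14, 53881612 to 53882217) was at 1.35 in the WT library and -2.02 in the KO-labelled one, and all 9 of its UMIs in WT members came from 1 cell. The difference between the libraries was not tested, since each is a single library. In the share of cells with a single δ gene, Trdv2-2 was carried by 68.3% of WT and 26.3% of KO-labelled members, against 19.9% and 30.2% of other T cells (41.4% and 30.7% of those without IL-17 gene UMIs), so the 2 readings had the same order in each library.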

How the results depend on the processing

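No paired analysis was possible because there was only 1 library in each group. In the main reading 642 of 9812 measured genes were higher (6.54%) and 1007 lower (10.3%) in WT members. In KO-labelled members 640 of 11451 were higher (5.59%) and 759 lower (6.63%). The number of genes measured also changes with settings such as the UMI minimum, so the counts below are not shares. The number of rule genes set the shares of members: with at least 2 of 7 they were 6.95% in the WT library and 4.90% in the KO-labelled one, with 365 genes higher in KO-labelled members, and with at least 4 of 7 they were 1.08% and 0.497%, with 1068 and 1072 genes higher and a WT cell cycle median of -0.14. Read at 2000 UMIs the shares were 1.74% and 0.758%, with 1127 genes higher in KO-labelled members. Against other T cells without IL-17 gene UMIs, 348 of 7963 genes were higher in WT (4.37%). The WT medians were then 1.83 for NK receptors and adaptors and, reversed, 0.14 for stress genes. The IL-17 program moved to -0.020, which is not read, since genes of that list chose the cells compared with. A minimum of 100 UMIs left 253 and 321 genes higher in WT and KO-labelled members, and a minimum of 1 gave 1669 and 1404 and a WT median of 3.36 for NK receptors and adaptors. These alternatives by construction change which cells or genes are counted. Of the 4 alternatives chosen after seeing the data, a call that also needs the interval clear of 0 left 379 genes higher and 439 lower in the WT library and 346 and 228 in the KO-labelled one. Leaving out, for each gene, the member with most of its UMIs gave 319 higher and 1581 lower in the WT library and 293 and 1313 in the KO-labelled one. Without the cycling members the WT cell cycle median reversed to -0.012, and the KO-labelled library gave no median, since 5 of its 10 measured genes had 0 UMIs in members. Those members were chosen on the cell cycle genes themselves, so this fall was set beforehand. Other T cells of at least the members' lower quartile of depth moved none of the summary values. Leaving out marked doublets at a fixed rate (51 WT and 355 KO-labelled cells) removed 1 and 7 members and moved none of the summary values, and Scrublet's own threshold marked 191 WT cells (7.62%) and 0 KO-labelled cells, so it did not work there. Of 170 summary values under an alternative, 144 stayed and 26 moved. Of the other values 752 stayed, 79 moved and 3 reversed, which were the WT cell cycle median in 2 settings and the WT stress median in 1. Among the genes named outside the lists and receptors 0 of 520 values reversed. Those genes were picked for the largest ratios in these same data, so reversals were unlikely from the start. The count is therefore no measure of how firm their ratios are. With 75 and 101 cells, genes under 30 UMIs could not be read.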
